A study of Mus musculus with 6 samples.

Results

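The Hedgehog pathway was examined in dental pulp of the mouse mandibular first molar through 9 genes, the ligand *Shh*, the receptor *Ptch1*, the signal transducer *Smo*, the coreceptors *Gas1* and *Boc*, the transcription factors *Gli1*, *Gli2* and *Gli3*, and the decoy receptor *Hhip*. They were taken by gene symbol from an RNA-seq table of 27506 genes, by a rule that uses no measured value, although the list was drawn up with earlier results of these data known. Each of the 9 was listed, and all were among the 19330 genes that passed the filter on low counts. Pulp of C57BL/6 mice was sampled at P3.5, that is, at an age of 3.5 days. The comparison was between 3 *Ror2fl/fl* control libraries and 3 *Osr2-Cre;Ror2fl/fl* libraries, called mutant libraries here. Both genotypes carried floxed *Ror2* alleles, and the genotype label of the controls lists no Cre. In the mutants, Cre recombinase driven by *Osr2* acts on mesenchymal cells of the tooth and on alveolar bone and spares dental epithelium, so the epithelial cells keep *Ror2*, a receptor of non-canonical Wnt signaling. The sources give neither the number of animals behind a library nor whether animals were pooled, so the p-values measure the spread between these libraries, which may be technical. The labels carry a letter code, WW in control library 1, OW in the other controls and OR in the mutants, and no source explains it.

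Hedgehog ligands bind Patched receptors and thereby release Smoothened (*Smo*) from inhibition, which acts at the primary cilium to turn the Gli proteins from repressors into activators. *Ptch1*, *Hhip* and *Gli1* are themselves transcribed in response to the signal in many tissues, so that they are widely used as its readouts, and *Ptch1* and *Hhip* hold the ligand back. In the tooth, *Shh* is made by dental epithelium, including the root sheath that leads root growth, and the mesenchyme facing it responds. A pulp that holds some epithelium therefore carries RNA of both the sending and the receiving tissue.

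Among the 9 genes, *Gli1* rose about 2.06-fold in mutant libraries, *Gli3* and *Hhip* fell by 29.4% and 32.4%, and *Shh*, *Ptch1*, *Smo*, *Gas1*, *Boc* and *Gli2* did not pass the test. A gene was called at an adjusted p-value under 0.05 in edgeR's quasi-likelihood fit (Benjamini-Hochberg over the 19330 genes). Thus 3 of the 9 genes were called (33.3%), 1 higher and 2 lower, where 20.2% of all genes tested were called, 10.4% higher and 9.84% lower. The median log2 fold change of the 9 genes was -0.04, against 0.0074 over all genes tested. With so few genes the count is not far from that background, and called members lay in both directions. Without control library 2, or without control library 3, edgeR called 0 of the 9, with the same signs for *Gli1*, *Gli3* and *Hhip*, and without mutant library 1 it called *Gli1* alone. The libraries of both genotypes did not overlap for *Boc*, *Gli1*, *Gli3* and *Hhip*, 4 of the 9, where 44.7% of all genes tested did not overlap. Of these, *Boc* and *Gli1* were above the controls in all mutants, as were 22.6% of all genes tested, and *Gli3* and *Hhip* were below them, as were 22.1%. The smallest two-sided p that an exact permutation of 3 against 3 libraries allows is 0.1, and these 4 genes reached it, against 0.2 to 0.7 for the other members. Libraries that do not overlap give this smallest p by themselves, so the permutation is no second test.

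**Figure D1:**
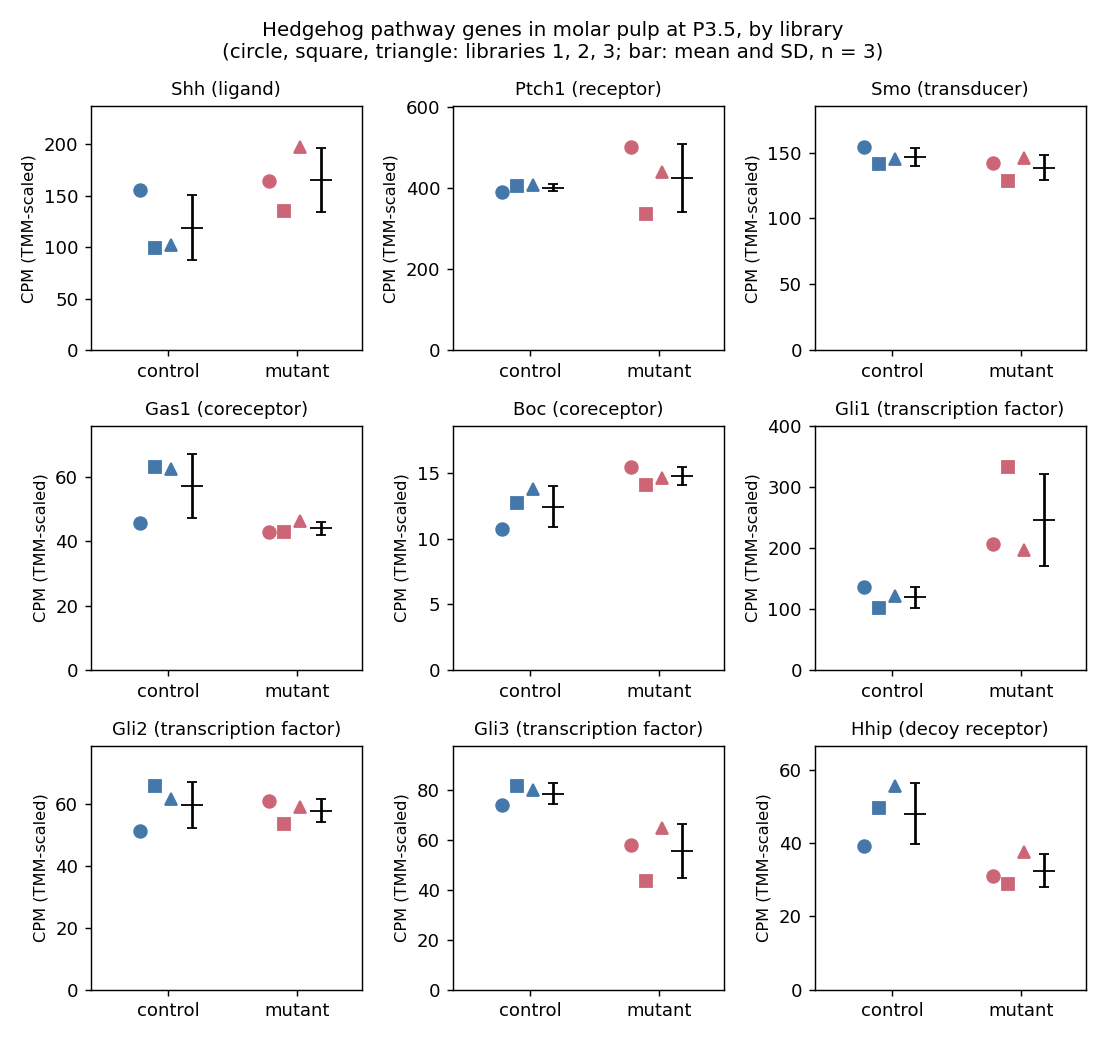
Expression of the 9 Hedgehog genes in TMM-scaled CPM in each of the 3 control (blue) and 3 mutant (red) libraries, on axes that start at 0. Circles, squares and triangles are libraries 1, 2 and 3, and the bars give the mean and SD (n = 3). *Gli1* lies higher and *Gli3* and *Hhip* lie lower in every mutant library, whereas *Shh*, *Ptch1*, *Smo*, *Gas1* and *Gli2* overlap between the genotypes.

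The targeted gene, *Ror2*, was measured at 38.2, 36.2 and 36.7 CPM in controls and at 27.9, 28.1 and 26.3 CPM in mutants, a fall of 26.0% (log2 fold change -0.43, SE 0.08, edgeR adjusted p = 0.0134). CPM are counts relative to a common library size set with edgeR's TMM scaling. All mutant libraries lay below all control libraries. The call was lost with the sample index as a block (edgeR adjusted p = 0.0582), without control library 2 (adjusted p = 0.0664) and without control library 3 (adjusted p = 0.0752), with log2 fold changes of -0.43 to -0.46, and with the offset for GC the log2 fold change was -0.65. The remaining RNA may include that of cells in which Cre does not act, and counts per gene do not separate transcripts with and without the floxed part. The part of either in the remaining level was not tested.

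The ligand *Shh* (ENSMUSG00000002633.4, mm10 chromosome 5, 28456815 to 28467256, minus strand) was expressed at 155, 99.6 and 102 CPM in control libraries 1, 2 and 3 and at 164, 135 and 197 CPM in mutant libraries 1, 2 and 3. Control library 1 stood within the mutant range, whereas the other controls were below all mutants. The means were 118.9 ± 31.6 and 165 ± 31.0 CPM (SD, n = 3), and the log2 fold change of 0.48 (SE 0.20) did not pass the threshold (edgeR adjusted p = 0.125). It passed only when control library 1 was left out (0.71, edgeR adjusted p = 0.0435), over an adjusted p range of 0.0435 to 0.357 in 15 alternatives. The other ligands were barely detected. *Ihh* stayed under 0.12 CPM in every library and was not tested, and *Dhh* was between 0.10 and 0.41 CPM, with a log2 fold change of -0.95 (edgeR adjusted p = 0.130). In bulk tissue, a change in the number of cells of a type and a change in RNA per cell cannot be told apart.

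Because *Shh* comes from epithelium, its level was set beside 20 dental epithelium markers. These libraries were rich in epithelial RNA although they are labeled as pulp, with *Amelx*, which encodes the main enamel matrix protein, taking 9.15 to 9.97% of all counts in controls and 12.6 to 15.1% in mutants. The summed level of the 20 markers was 174230 to 194390 CPM in controls and 187110 to 257790 CPM in mutants, and 1 of the 20, *Odam*, passed the test, with a lower level in mutants (5%, against 20.2% of all genes tested). DESeq2 called 5 of them, 4 higher and 1 lower, and without mutant library 2 edgeR called 5, 3 higher and 2 lower. Because *Amelx* and *Ambn*, another enamel matrix gene, dominate this sum, the markers were also summed without the 6 enamel genes, a choice made after the values were seen. The 14 markers left, such as *Krt14* and *Krt5*, summed to 6412, 5186 and 5411 CPM in controls and to 6172, 5656 and 6745 CPM in mutants. By this sum, control 2 had the least of the markers and the least *Shh*, and mutant 3 the most of both. The order was another with all 20 markers, where control 1 had the lowest sum (174230 CPM), mutant 1 the highest (257790 CPM) and control 2 a higher sum (194390 CPM) than the other controls. Per 1000 CPM of these 14 markers, *Shh* was at 24.2, 19.2 and 18.8 CPM in controls and at 26.6, 23.9 and 29.2 CPM in mutants. On this scale too, control library 1 overlapped the mutants. Per 1000 CPM of all 20 markers, *Shh* was at 0.892, 0.512 and 0.545 CPM in controls and at 0.637, 0.722 and 0.912 CPM in mutants, so that control library 1 lay near the top of the mutant range.

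**Figure D2:**
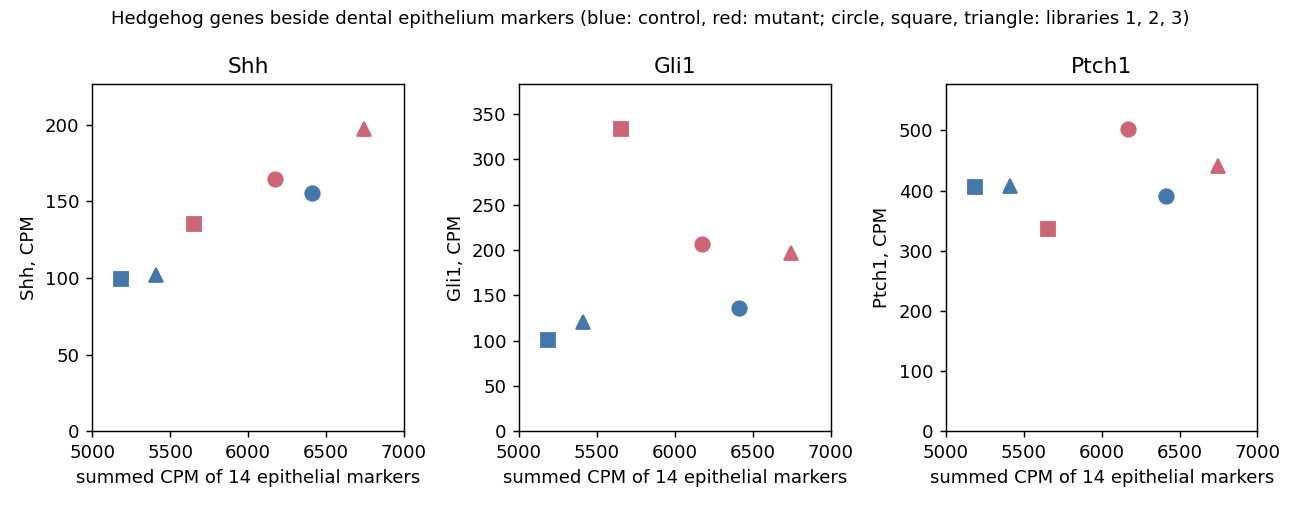
*Shh*, *Gli1* and *Ptch1* (CPM, vertical axes from 0) against the summed CPM of the 14 dental epithelium markers (horizontal axes not from 0), with 1 point per library, controls in blue and mutants in red. *Shh* is lowest in the library with the lowest sum of these 14 markers and highest in that with the highest, an order that the sum of all 20 markers does not give, while *Gli1* in every mutant lies above all controls, also above control library 1, which has 6412 CPM of the markers, and *Ptch1* in mutants lies on both sides of the controls.

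The receptor *Ptch1* did not pass the test. *Ptch1* (ENSMUSG00000021466.12, chromosome 13, 63508328 to 63573598, minus strand), the main Hedgehog receptor, was at 392, 406 and 407 CPM in controls and at 502, 336 and 441 CPM in mutants. The mutants lay on both sides of the controls, which were within a narrow range, and the log2 fold change was 0.09 (SE 0.15, edgeR adjusted p = 0.716). It stayed short of the threshold in all 15 alternatives, over log2 fold changes of -0.05 to 0.31.

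*Hhip* (ENSMUSG00000064325.4, chromosome 8, 79965851 to 80058006, minus strand), which encodes a membrane protein that binds and sequesters the ligands, fell. It was at 39.1, 49.6 and 55.6 CPM in controls and at 31.1, 28.8 and 37.7 CPM in mutants. The highest mutant and the lowest control, libraries mutant 3 and control 1, were close to each other, but the genotypes did not overlap. The means were 48.1 ± 8.32 and 32.5 ± 4.59 CPM (SD, n = 3), with a log2 fold change of -0.56 (SE 0.15, edgeR adjusted p = 0.0370). The call was not kept under every setting. The longest annotated *Hhip* transcript holds 41.2% GC, at percentile 10.2 of the genes tested. With an offset for GC content the log2 fold change moved to -0.29 (edgeR adjusted p = 0.143), and with offsets for GC and length to -0.21 (adjusted p = 0.220), and the call was lost. It was also lost without control library 2 or 3 (adjusted p = 0.124 and 0.145) and without mutant library 1 or 2 (0.0914 and 0.0692).

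The coreceptors *Gas1* and *Boc*, which help Patched to bind the ligand, did not pass the test. *Gas1* (ENSMUSG00000052957.8, chromosome 13, 60174405 to 60177365, minus strand) was at 45.9, 63.3 and 62.6 CPM in controls and at 43.1, 42.8 and 46.2 CPM in mutants. Control library 1 fell within the mutant range, as it did for *Shh*. The log2 fold change was -0.38 (SE 0.13, edgeR adjusted p = 0.0747), and it passed the threshold in 4 of 15 alternatives, with DESeq2 (adjusted p = 0.0458), with the offset for GC (-0.59, adjusted p = 0.0322), with those for GC and length (-0.60, adjusted p = 0.0327) and without control library 1 (-0.53, adjusted p = 0.0200). *Boc* (ENSMUSG00000022687.12, chromosome 16, 44485049 to 44558897, minus strand) was at 10.7, 12.7 and 13.8 CPM in controls and at 15.5, 14.1 and 14.6 CPM in mutants. These did not overlap, but the gap between the highest control and the lowest mutant was small, and the log2 fold change of 0.25 (SE 0.12) was not past the threshold (edgeR adjusted p = 0.178). The third coreceptor, *Cdon*, had a log2 fold change of -0.16 (SE 0.14, edgeR adjusted p = 0.427).

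*Smo* (ENSMUSG00000001761.7, chromosome 6, 29735503 to 29761365, plus strand), the transducer on which all ligands converge, was among the least variable members. It was at 154, 141 and 145 CPM in controls and at 142, 128 and 146 CPM in mutants, with overlap. The log2 fold change was -0.08 (SE 0.10, edgeR adjusted p = 0.568), and it did not pass the threshold in any of 15 alternatives.

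The 3 Gli genes, which encode the zinc finger transcription factors at the end of the pathway, differed from each other. *Gli1* (ENSMUSG00000025407.7, chromosome 10, 127329882 to 127341974, minus strand), which acts as an activator and is itself a target, was at 135, 101 and 121 CPM in controls and at 207, 333 and 197 CPM in mutants. All mutants were above all controls, and mutant library 2 stood well above the other two. The means were 119 ± 17.3 and 246 ± 76.0 CPM (SD, n = 3), with a log2 fold change of 1.05 (SE 0.21, edgeR adjusted p = 0.0155). Without mutant library 2 the log2 fold change was smaller, at 0.77, and still past the threshold. It was past it in 13 of 15 alternatives and was lost without control library 2 (0.93, edgeR adjusted p = 0.0739) and without control library 3 (1.05, adjusted p = 0.0681).

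*Gli2* (ENSMUSG00000048402.14, chromosome 1, 118834132 to 119053619, minus strand), the main activator at the start of a response, did not pass the test. It was at 51.4, 65.7 and 61.7 CPM in controls and at 61.0, 53.6 and 58.9 CPM in mutants, which lay within the control range, with a log2 fold change of -0.04 (SE 0.11, edgeR adjusted p = 0.809). *Gli3* (ENSMUSG00000021318.15, chromosome 13, 15463235 to 15730026, plus strand), the main repressor when the ligand is absent, fell. It was at 73.8, 81.5 and 80.2 CPM in controls and at 58.1, 43.5 and 64.7 CPM in mutants, all of which were below the controls. The means were 78.5 ± 4.13 and 55.4 ± 10.9 CPM (SD, n = 3), with a log2 fold change of -0.50 (SE 0.14, edgeR adjusted p = 0.0438). This was close to the threshold, and it stayed past it in 9 of 15 alternatives. The call was lost without control library 1, 2 or 3 (edgeR adjusted p = 0.0753, 0.148 and 0.142), without mutant library 1 (0.0813), without the filter on low counts (0.0586) and with the sample index as a block (0.0711). In these the log2 fold change stayed between -0.48 and -0.55. Mutant library 2 had the lowest *Gli3* and the highest *Gli1* of the 6 libraries. The ratio of *Gli1* to *Gli3* CPM, not divided by length, was 1.84, 1.24 and 1.51 in controls and 3.56, 7.67 and 3.05 in mutants. It sets a gene called higher over a gene called lower, so its separation is no further test.

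**Figure D3:**
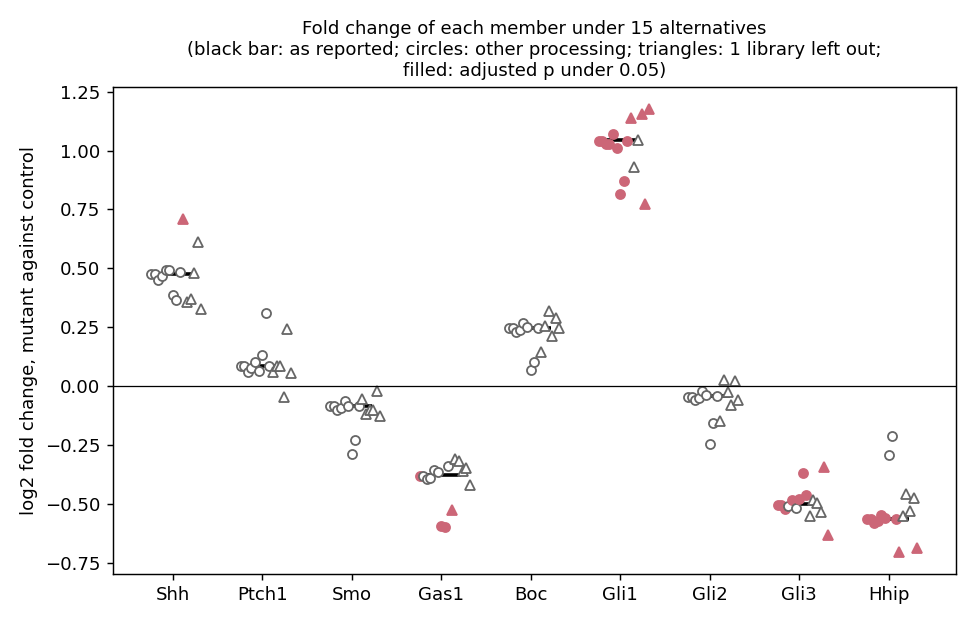
Log2 fold change (mutant against control) of the 9 genes as reported (black bars) and under 15 alternatives, of which circles are other processing and triangles leave out 1 library. Filled symbols have an adjusted p under 0.05. *Gli1* stays between 0.77 and 1.18, *Gli3* and *Hhip* stay below 0 with 9 of 15 symbols filled, and *Ptch1* and *Gli2* cross 0.

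Several ratios show how unevenly the members moved within a library. *Gli1* per *Ptch1*, both in CPM, was 0.346, 0.248 and 0.296 in controls and 0.412, 0.993 and 0.447 in mutants, and *Hhip* per *Ptch1* was 0.10, 0.122 and 0.136 in controls and 0.0620, 0.0858 and 0.0854 in mutants. Neither ratio overlapped between the genotypes. *Gli1* and *Hhip* did not overlap on their own either, so these ratios are descriptions and no further test. *Gli1* per *Shh* was 0.872, 1.01 and 1.19 in controls and 1.26, 2.47 and 1.0 in mutants, and here mutant library 3 was within the control range. Per 1000 CPM of the 14 epithelium markers, *Gli1* was at 21.1, 19.5 and 22.3 CPM in controls and at 33.5, 58.9 and 29.2 CPM in mutants. On this scale, which was chosen after the values were seen, the mutants lay above the controls for *Gli1*. The part of epithelium in the level of either gene was not tested.

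Levels of different genes were compared per length, as CPM per kilobase of annotated exon. In controls, *Shh* was highest at 41.8 ± 11.1 CPM per kb, followed by *Ptch1* at 28.3 ± 0.622, *Smo* at 26.1 ± 1.19, *Gli1* at 23.8 ± 3.47 and *Gas1* at 19.3 ± 3.33 (SD, n = 3). *Gli2* at 8.67 ± 1.08, *Gli3* at 8.19 ± 0.430, *Hhip* at 5.30 ± 0.917 and *Boc* at 2.79 ± 0.348 CPM per kb were lower. Neighbors in this order were apart by more than their SDs added together, except *Smo* and *Gli1*, *Gli1* and *Gas1*, and *Gli2* and *Gli3*. In mutants, *Shh* was at 58.1 ± 10.9, *Gli1* at 49.2 ± 15.2 and *Ptch1* at 30.0 ± 5.94 CPM per kb, and *Gli1* was apart from neither of the other two by more than their SDs added together, while *Boc* at 3.31 ± 0.155 and *Hhip* at 3.58 ± 0.506 remained at the low end. These levels average over all cells of the tissue and rest on the annotated length, not on the transcripts in use.

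**Figure D4:**
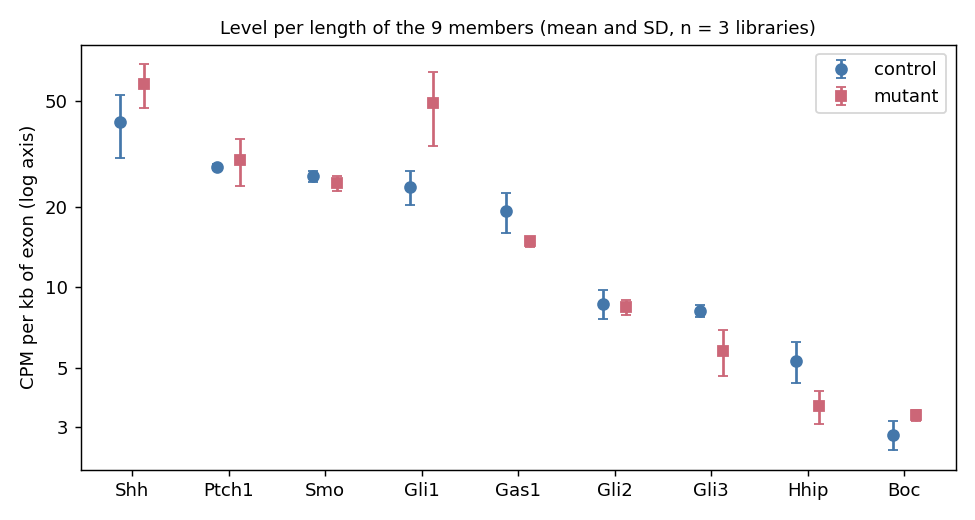
Level of the 9 genes in CPM per kb of exon on a log axis, ordered by the control mean, with the mean and SD of 3 control (blue) and 3 mutant (red) libraries. *Gli1* shows the widest separation of the genotypes, and *Gli2*, *Gli3*, *Hhip* and *Boc* lie below the others in both.

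A further 40 genes of the pathway, from ligand release to Gli degradation, were taken from a hand-written list. Of the 38 tested, 8 passed the test (21.1%, against 20.2% of all genes tested), 2 higher and 6 lower, and the median log2 fold change of those tested was -0.15. The count is near the background, and it was 4 with the GC offset, 1 without control library 2 and 0 without control library 3 (edgeR). In a role that acts on the ligand, 1 of the 7 genes for processing and release rose, *Disp3*, related to the Dispatched transporter, from a level under 0.1 CPM in every control to 0.254, 0.520 and 0.203 CPM in mutants (log2 fold change 2.17, SE 0.53, edgeR adjusted p = 0.0274). This rests on very few counts. Of the 4 glypicans, cell surface proteoglycans, *Gpc6* fell, from 25.9, 37.0 and 37.0 CPM in controls to 21.3, 12.1 and 15.05 CPM in mutants (log2 fold change -1.04, SE 0.22, edgeR adjusted p = 0.0175).

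Of the 11 genes that relay or dampen the signal at Smoothened, 1 fell and none rose. This was *Mosmo*, which attenuates signaling by lowering Smoothened at the cell surface, at 30.1, 32.9 and 32.8 CPM in controls and at 22.1, 20.2 and 22.1 CPM in mutants. The log2 fold change was -0.57 (SE 0.09, edgeR adjusted p = 0.00719), and with offsets for GC and length it was -0.23 and no longer past the threshold (adjusted p = 0.0846). Of the 14 genes that control the Gli proteins, 1 rose and 4 fell. *Kif7*, a kinesin of the cilium tip, had a log2 fold change of 0.34 (SE 0.10, edgeR adjusted p = 0.0445), while *Cul3*, *Cul1*, *Csnk1a1* and *Prkaca*, which take part in phosphorylation and degradation of Gli proteins among many other substrates, had log2 fold changes of -0.39, -0.33, -0.46 and -0.34. With the offset for GC, *Cul1* moved to -0.15 and was no longer past the threshold (edgeR adjusted p = 0.255). *Kif7*, *Cul3*, *Csnk1a1* and *Prkaca* were named after their values were seen. With the sample index as a block, none of them was past the threshold, as the 2 genes of this list called were *Mosmo* and *Gpc6*. Without control library 1, the 2 called lower were again *Mosmo* and *Gpc6*, so *Cul3*, *Csnk1a1* and *Prkaca* were lost. With the offset for GC, alone or with that for length, the 1 gene of the list called higher was *Disp3*, so *Kif7* was lost. *Sufu*, which holds Gli proteins in the cytoplasm, did not pass the test (0.01, SE 0.09, edgeR adjusted p = 0.956).

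**Figure D5:**
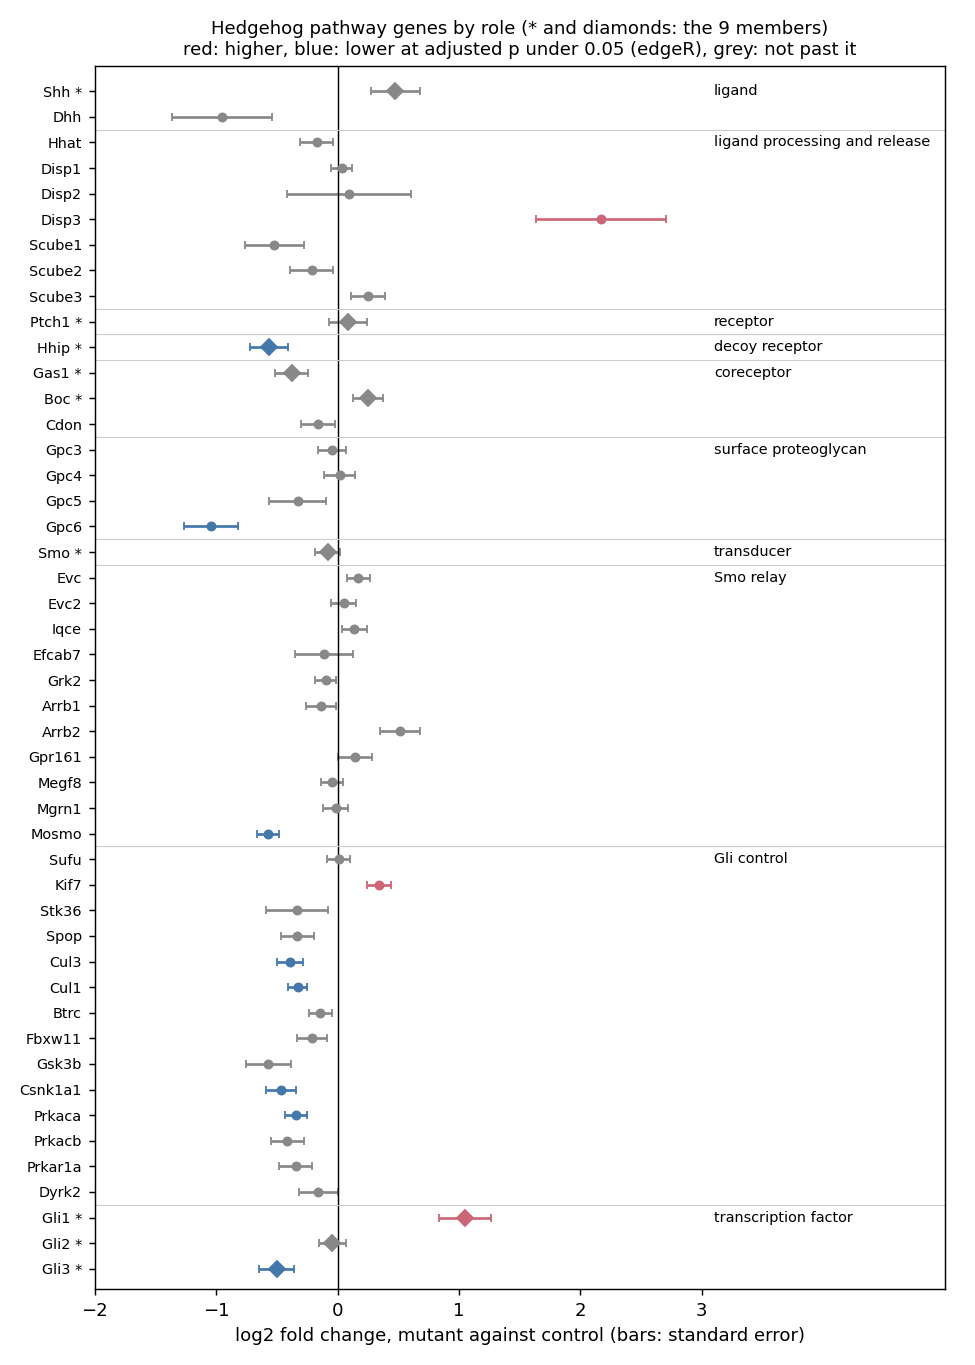
Log2 fold change, mutant against control, with its standard error for the 9 members (diamonds and asterisks) and the 38 other pathway genes tested (circles), ordered by role from the ligands at the top to the Gli factors at the bottom. Genes past the threshold are red (higher) or blue (lower). *Gli1*, *Kif7* and *Disp3* are red and 8 genes are blue.

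Genes listed as responding to Gli factors, in the tooth or in other tissues, were called in both directions. Of 19 such genes on a second list, 18 were tested and 4 passed the test (22.2%, against 20.2% of all genes tested), 1 higher and 3 lower. The median log2 fold change was -0.17. *Nkx2-3*, a homeobox gene, was higher, at 1.83, 1.58 and 1.77 CPM in controls and 3.03, 3.59 and 3.08 CPM in mutants (log2 fold change 0.90, SE 0.18, edgeR adjusted p = 0.0132). *Bcl2*, a survival gene, *Bmi1*, a Polycomb gene, and *Ccnd2*, a cyclin, were lower, with log2 fold changes of -0.73, -0.51 and -0.62 (edgeR adjusted p = 0.00951, 0.0141 and 0.0269). With the offset for GC, *Bmi1* moved to -0.20 and was no longer past the threshold (edgeR adjusted p = 0.153), as with offsets for GC and length (-0.23, adjusted p = 0.12) and with the sample index as a block (adjusted p = 0.0501). *Ccnd2* was lost with that block (edgeR adjusted p = 0.0564) and without mutant library 1 (adjusted p = 0.0732). This list had 0 called genes without control library 2 or without control library 3. Among the members used as readouts of the signal, *Gli1* was higher, *Hhip* lower and *Ptch1* not past the test.

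Genes of the primary cilium, where the signal is transduced, moved in both directions, with 6 of 48 tested called (12.5%, against 20.2% of all genes tested), 3 higher and 3 lower. DESeq2 called 14, 5 higher and 9 lower, and with the sample index as a block edgeR called 1 higher and 5 lower. The median log2 fold change was -0.09. *Cep290* and *Ttbk2*, which act at the base of the cilium, were lower, with log2 fold changes of -1.02 and -0.85 (edgeR adjusted p = 0.0136 and 0.0190). With offsets for GC and length these were -0.54 and -0.50, still past the threshold, and *Ttbk2* was lost without mutant library 1 (edgeR adjusted p = 0.0523). *Ift46*, an intraflagellar transport gene, and *B9d2*, of the transition zone, were higher, with log2 fold changes of 0.52 and 0.46 (edgeR adjusted p = 0.0141 and 0.0310), *B9d2* in only 7 of 15 alternatives. This list had 0 called genes without control library 2 or without control library 3, and 20 without mutant library 3.

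By the pattern over the 6 libraries, the genes most like *Gli1* were *Arrdc1*, *2010111I01Rik* and *Abtb1*, with root mean square differences of 0.077, 0.079 and 0.080 in centered log2 CPM among 15048 genes with at least 1 CPM on average. *Arrdc1* was at 7.83, 6.79 and 8.05 CPM in controls and at 12.9, 22.01 and 12.2 CPM in mutants, so that it was also highest in mutant library 2. *Shh*, the closest other member, came at rank 3993 (0.487). The longest annotated transcripts of *Arrdc1*, *2010111I01Rik* and *Abtb1* held 58.6%, 50.2% and 55.4% GC, beside 59.0% for *Gli1* and a median of 49.6% over the genes tested. The part of GC content in the likeness was not tested, and the likeness is a description of these 6 libraries.

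The windows of 250 bases before the start of the RefSeq entry were read for the 6 members found in the RefSeq promoter table (GRCm38.p6, the mm10 assembly), *Ptch1*, *Smo*, *Gas1*, *Gli2*, *Gli3* and *Hhip*. In GENCODE M21, the windows of *Ptch1* and *Gli3* lie inside the annotated gene, and those of *Gas1* and *Gli3* overlap an annotated exon. The Gli binding motif GACCACCCA, read on both strands, was found in 0 of the 6 windows and in 0.225% of 32851 windows of that length. Its core CCACCC, searched on both strands and chosen after the data were seen, lay in 4 of the 6, once in *Smo*, *Gli3* and *Hhip* and at 2 places in *Gli2*, and in 28.1% of all windows. The windows with the core held 67.2 to 76.0% GC, and those of *Gas1* and *Ptch1*, without it, 58.8% and 78.4%. The share over all windows was not matched for GC, so an excess of the core was not tested. The windows of *Hhip*, which fell, and of *Gli2* and *Smo*, which did not pass the test, are shown to compare members with a like core and different results. They lie at chr8:80058009-80058258 (minus strand), chr1:119053620-119053869 (minus strand) and chr6:29735247-29735496 (plus strand), with the core or its reverse complement GGGTGG in capitals.
Hhip: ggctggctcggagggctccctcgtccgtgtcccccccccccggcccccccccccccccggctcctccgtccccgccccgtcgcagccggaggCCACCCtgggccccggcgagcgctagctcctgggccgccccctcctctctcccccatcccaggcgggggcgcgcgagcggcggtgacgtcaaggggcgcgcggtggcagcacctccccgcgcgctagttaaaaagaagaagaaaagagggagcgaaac
Gli2: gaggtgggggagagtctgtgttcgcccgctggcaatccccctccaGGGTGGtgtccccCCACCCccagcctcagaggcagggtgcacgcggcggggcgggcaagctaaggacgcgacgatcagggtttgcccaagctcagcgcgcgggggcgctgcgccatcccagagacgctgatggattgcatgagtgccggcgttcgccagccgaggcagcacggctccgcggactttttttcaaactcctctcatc
Smo: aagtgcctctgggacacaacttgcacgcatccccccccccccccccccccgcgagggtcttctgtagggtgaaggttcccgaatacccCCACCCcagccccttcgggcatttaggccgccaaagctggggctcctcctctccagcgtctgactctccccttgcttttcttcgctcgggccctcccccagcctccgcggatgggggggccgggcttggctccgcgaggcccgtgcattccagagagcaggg
The core thus occurred in windows of genes that fell and of genes that did not pass the test, and a match describes letters, not a bound site.

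Some features of the libraries as a whole touch these values. The libraries held 56134770 to 62628940 estimated counts, and the members between 692 and 29696 counts in each. GC content was read from the longest annotated transcript of each gene, and that of *Gli1* is rich in GC (59.0%, against a median of 49.6% over the genes tested). Log2 CPM relative to each gene's mean fell with GC in the controls, by 0.097 to 0.167 per 10 points, and rose in the mutants, by 0.082 to 0.178. With the offset for GC, the log2 fold change of *Gli1* was 0.82 (edgeR adjusted p = 0.0260), that of *Gli3* was -0.48 (adjusted p = 0.0475) and that of *Shh* was 0.39 (adjusted p = 0.217). *Shh*, *Gas1*, *Gli1*, *Gli3* and *Hhip* overlap other annotated exons on the opposite strand, and use of strand in counting is not stated. Those of the overlapping genes that the count table lists were far lower, such as *Gm48488* beside *Gas1* at 0.589 ± 0.242 CPM in controls and 1.76 ± 0.286 CPM in mutants (SD, n = 3), and summing counts with genes that share sequence left the calls at *Gli1*, *Gli3* and *Hhip*.

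Markers of other cells were set beside the share over all genes tested, of which 20.2% were called, 10.4% higher and 9.84% lower. All of these lists are short, and the skeletal muscle list stood furthest from that share. Skeletal muscle genes were lower in mutants for 5 of 5 tested, with a summed level of 8.13 to 31.1 CPM in controls and 1.91 to 2.20 CPM in mutants, and *Acta1* and *Myh8* led, while *Myog* was at 0 in control library 3 and mutant library 1. Of 5 erythroid genes 2 were lower, with sums of 781.8 to 1318 CPM and 243.4 to 932.0 CPM. Of 12 dental mesenchyme genes 2 were higher and 1 lower, with sums of 1210 to 1522 CPM and 1190 to 1447 CPM, and *Osr2* itself overlapped. Of 8 odontoblast genes 0 passed edgeR's test, and their sum, mostly *Col1a1* and *Col1a2*, was 20187 to 60140 CPM in controls and 17304 to 46880 CPM in mutants. The bone (1 of 4 lower), endothelium (0 of 6), glia (2 of 6 higher) and leukocyte (1 higher and 1 lower of 6) lists gave the other counts. Their part in the values of the Hedgehog genes was not tested.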

How the data were processed

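Dental pulp RNA of 3 control and 3 mutant libraries was sequenced by the study as single-end reads. The authors deposited estimated counts per gene, not normalized, aligned to mm10. The methods name TopHat 2, whereas the submitters' processing notes list STAR 2.6.1d and Partek, and the counting rule for reads fitting several genes is not given in the sources used here. A second deposited table of normalized values and 6 sample columns that the labels assign to neither group were not used.

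Estimated counts were rounded, and groups were taken from the genotype labels. Library sizes were scaled by TMM, genes were kept by filterByExpr, and genotypes were compared with edgeR 4.0.16's quasi-likelihood test (R 4.3.3), with Benjamini-Hochberg adjustment over 19330 genes. For exact permutation tests, log2 CPM had a prior count of 2. The tests were run on simulated libraries in which 200 genes were changed, fewer than were called in the data. There edgeR recovered 20% of 1.5-fold, 52% of 2-fold, 74% of 3-fold and 90% of 4-fold changes, with 10 calls among unchanged genes. DESeq2 recovered 32%, 60%, 76% and 92%, with 39 such calls. The simulated libraries also lacked the trends with GC content that differ between the genotypes in the data. These shares and calls among unchanged genes need not hold where more genes change or such trends are present. Alternatives were DESeq2 1.42.0, other scalings and filters, GC and length offsets (lowess, span 0.3), a block on the sample index, summing genes that share at least 20 stretches of 75 bases, and leaving out each library. Coordinates, lengths and GC come from GENCODE M21 on mm10, in which all 27506 genes were found. Totals of 56134770 to 62628940 counts per library leave the precision of the members limited by the spread between libraries.

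Members and lists were chosen with earlier results of these data known. Named are the 9 members, the 4 genes with the smallest p in each pathway list, and the 3 genes most like *Gli1*. The other ligands, *Cdon*, *Sufu*, *Ror2* and *Osr2* were named in any case. For the epithelium, odontoblast and skeletal muscle lists, the 2 most abundant genes and any at 0 are named. Apart from *Osr2*, the other marker lists are given as counts or sums only. Others named are said to be chosen after their values were seen or are marker examples. A pathway gene is not reported here and was taken off the lists. The genotypes carry different identifier series in the labels, so genotype and any sequencing run cannot be told apart.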

Additional observations from a re-analysis of the deposited data

How the results depend on the processing

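Leaving out 1 library in turn gave between 872 and 5001 called genes in all, 0 to 4 of the 9 members and 0 to 9 of the other pathway genes. Without control library 2 or control library 3, 0 members were called by edgeR, without mutant library 1 only *Gli1* was, and without control library 1 *Gli1*, *Hhip*, *Gas1* and *Shh* were. The cause was not tested. Among the other pathway genes, 8 were called as reported, against 4 without the filter, 4 with the GC offset, 3 with the GC and length offsets and 2 with the replicate block. Among the named genes recomputed under the alternatives, the direction turned for *Ptch1*, *Gli2* and *Sufu*. *Kif7*, *Cul3*, *Csnk1a1*, *Prkaca* and the cell type markers were recomputed only within the counts of their lists. Those counts show that *Kif7*, *Cul3*, *Csnk1a1* and *Prkaca* were not called with the replicate block. With 1 library left out, *Ptch1* ranged from -0.048 (without mutant library 1) to 0.241, *Gli2* from -0.148 to 0.025 (without control library 2; 0.020 without mutant library 2) and *Sufu* from -0.045 (without mutant library 1; -0.030 without control library 1) to 0.067. *Sufu* was also at -0.012 with library size alone, -0.001 without the filter, -0.167 with the GC offset and -0.062 with the GC and length offsets. DESeq2 called 5410 genes in all and 4 members.

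Libraries with the same sample index did not deviate together (correlations of -0.10, -0.08 and -0.004), so the index was taken as only a number. With it as a replicate block, edgeR called 2013 genes in all, against 3906, and 2 members, *Gli1* and *Hhip*.

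With 3 libraries a group, each call leans on single libraries, and the loss of calls without control library 2 or 3 accompanies a loss over all genes, to 910 and 872. The counts limit *Disp3*, *Dhh* and *Ihh*, which lie under 1 CPM.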
